A study of Mus musculus with 4 samples.

Results

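The Zfp genes are the mouse genes named Zfp and a number, a naming series given to zinc finger proteins. Of 18804 genes in the expression table, 340 had such a symbol. Zfp36, an mRNA decay factor with another type of finger, was left out, which left 339, and 203 of these, whose 4 libraries averaged 1 FPKM or more, are described here. FPKM counts fragments relative to gene length and to the fragments of the whole library, so it is a level per length. The other 136 genes lay under this level, 7 of them listed at 0 in every library, 51 under a mean of 0.1 FPKM and 38 at 0.5 FPKM or more. The level rule used the mean over both genotypes and no difference between them.

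RNA was sequenced from group 1 innate lymphoid cells (ILC1s), tissue-resident lymphocytes related to natural killer (NK) cells, from the livers of adult mice aged 5 to 8 weeks in homeostasis, meaning with no infection or treatment named. Of the 4 libraries, 2 were Cd200r knockout, numbered 1 and 2, and 2 were WT, numbered 1 and 3. Cd200r encodes the receptor for CD200, an inhibitory receptor of immune cells. The allele, the sorting gates and whether a library came from 1 mouse or from a pool are not stated in the labels. The p-values below therefore rest on how far libraries of 1 genotype lie apart, which may be partly technical.

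Most Zfp proteins carry C2H2 fingers, small folds in which a pair of cysteines and a pair of histidines hold a zinc ion and which read DNA bases, in arrays joined by short linkers. Many also carry a KRAB box, which binds the corepressor Trim28, and Trim28 brings in the histone methyltransferase Setdb1 to silence DNA, above all retroelements. Others activate transcription, or act on RNA, ribosomes or the mitotic spindle. KRAB zinc finger genes lie in clusters that arose by duplication.

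A finger was searched as a cysteine, 2 to 4 residues, a cysteine, 12 residues, a histidine, 3 to 5 residues and a histidine in the translated coding sequence of each gene. At least 1 was found in 199 of the 200 members for which a coding sequence was found in GENCODE M21. The exception, Zfp330, is a nucleolar protein. A KRAB box was called where at least 7 of 8 fixed residues of its A box were found in their spacing. It was found in 116 members, 93 of them with all 8 residues. A further 6 members held 5 or 6 of the residues. They were counted as without a KRAB box, so that class may hold diverged boxes. A SCAN domain, a domain through which zinc finger proteins pair, was found in 8 members, 3 of which had a KRAB box too. No coding sequence was found for 3 members, Zfp268, Zfp783 and Zfp935. The search took only GENCODE genes with a Zfp symbol, so a gene listed there under another symbol would be missed. Zfp268 is annotated as protein coding in RefSeq. The coding DNA of 6 stretches shows these features in the members the results turn on. They are from the GRCm38 build on the plus strand, read 5′ to 3′. In fingers the capitals mark the codons of the 4 zinc-binding residues, and in KRAB boxes those of the 8 fixed residues. Zfp51 is the KRAB member with the highest level, Zfp788 the member with the lowest log2 fold change, Zfp775 the one with the highest, and Zfp512 the one that passed the test.
Zfp51 finger and linker, chr17:21463854-21463931: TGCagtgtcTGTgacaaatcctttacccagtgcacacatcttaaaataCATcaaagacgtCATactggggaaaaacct
Zfp788 finger and linker, chr7:41648827-41648904: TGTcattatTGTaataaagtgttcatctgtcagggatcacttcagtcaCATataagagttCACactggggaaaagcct
Zfp512 first finger, chr5:31468166-31468231: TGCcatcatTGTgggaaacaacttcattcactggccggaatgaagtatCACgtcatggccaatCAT
Zfp775 first finger, chr6:48619509-48619571: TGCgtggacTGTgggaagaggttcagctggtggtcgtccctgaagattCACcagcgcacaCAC
Zfp51 KRAB A box, chr17:21461709-21461762: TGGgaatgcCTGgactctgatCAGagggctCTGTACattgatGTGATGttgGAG
Zfp788 KRAB A box, chr7:41647539-41647592: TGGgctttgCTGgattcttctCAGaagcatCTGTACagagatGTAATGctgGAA
The Zfp51 and Zfp788 stretches end in the linker TGEKP, the usual join between neighbouring fingers, which 150 members had at least once. Zfp512 has 3 fingers by this pattern and no such linker, while Zfp788 has 23 fingers and Zfp51 has 19.

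The array length varied widely. KRAB members had a median of 12 fingers (range 2 to 23) and the 79 members with neither a KRAB box nor a SCAN domain a median of 7 (range 0 to 30). In all, 109 members had 10 or more fingers, 11 had 20 or more, and 14 had 2 or fewer. The longest array by this count was that of Zfp236, with 30 fingers.

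The members were of low level. Of the 203, 127 had a mean of 1 to 5 FPKM, 65 of 5 to 20 and 11 of 20 or more, and their median was 3.56 FPKM beside 10.4 FPKM over the 9476 genes of any kind that averaged 1 FPKM or more. Together they made up 0.283% and 0.282% of all FPKM in knockout and 0.303% and 0.295% in WT. The lowest members were Zfp65 (mean 1.03 FPKM), Zfp882 (1.03 FPKM) and Zfp78 (1.04 FPKM). Just under the level rule lay Zfp846 (0.995 FPKM), Zfp113 (0.97 FPKM) and Zfp319 (0.925 FPKM). All 4 libraries were at 1 FPKM or more in 179 members, and at least 1 library was under it in 24.

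**Figure D1:**
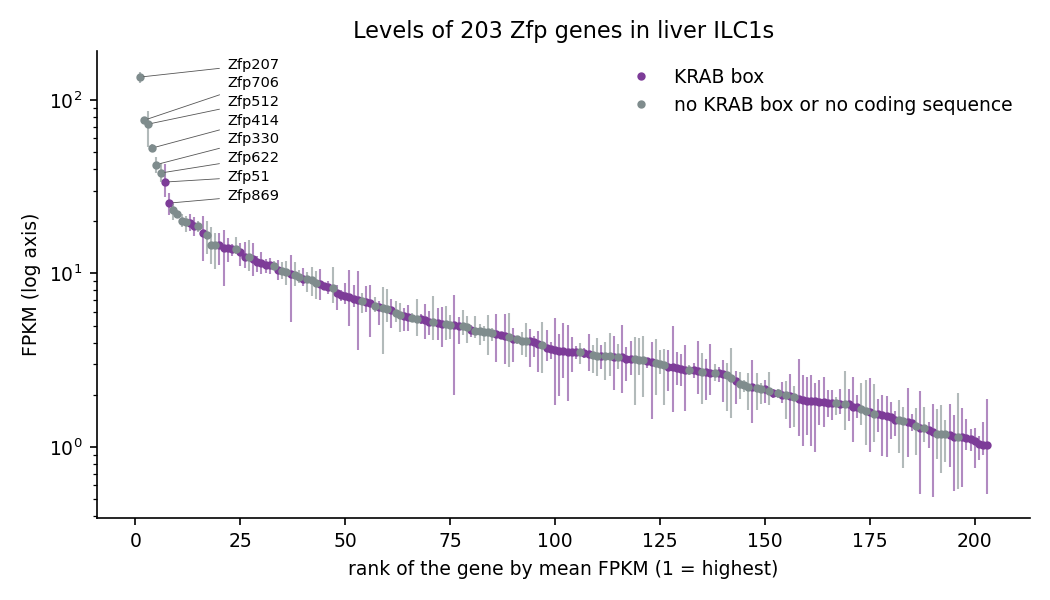
Mean FPKM (log axis) of each of the 203 Zfp genes by rank, with vertical lines from the lowest to the highest of the 4 libraries; colour marks a KRAB box. The 8 highest genes are named, and 2 of them, Zfp51 and Zfp869, have a KRAB box.

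The highest members were mostly not KRAB genes. Zfp207, which binds microtubules and the checkpoint protein Bub3 in spindle assembly, was the highest, at 145.0 and 142.5 FPKM in knockout and 125.3 and 129.1 FPKM in WT. Zfp706 followed at 76.2 and 78.7 FPKM in knockout and 73.2 and 77.3 FPKM in WT. Zfp512 was the third, and Zfp414 (54.8 and 50.7 FPKM in knockout, 50.2 and 55.7 FPKM in WT) the fourth. The knockout and WT values of Zfp706 and Zfp414 overlapped, while both knockout values of Zfp207 lay above both WT values. Zfp51 read 29.1 and 42.6 FPKM in knockout and 27.6 and 35.3 FPKM in WT, so that its replicates lay further apart than its group means. Zfp869, the other KRAB gene of the 12 highest, read 23.9 and 21.8 FPKM in knockout and 26.9 and 29.1 FPKM in WT. The remaining genes of the 12, which are Zfp330, Zfp622, Zfp511, Zfp143, Zfp637 and Zfp422, had means between 19.7 and 42.4 FPKM. Of KRAB members, 17 of 116 (14.7%) reached a mean of 10 FPKM, and of members with a coding sequence and no KRAB box, 19 of 84 (22.6%). Across 200 genes, Spearman's rho between the number of fingers and the mean level was −0.31, a description over genes measured in the same libraries.

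The labels were checked first against the targeted gene and against cell markers. Cd200r1 was lower in the knockout, with 110.7 and 103.7 FPKM in knockout and 161.5 and 173.3 FPKM in WT (−0.64, limma adjusted p = 0.00451), so its transcript was still counted there, and the labels do not say which part of the gene the allele removes. The depth, inferred from the steps between low values of single-exon genes, was 38879032 to 41018578 reads a library. This is an estimate, since 58.7% to 74.0% of those low values came within 0.05 of a whole read and whole reads were not recovered. On it rest the estimated reads per gene, with a median of 703 over the members. The 9 ILC1 markers, Ncr1 and Tbx21 among them, were all above 1 FPKM. Of the 9, 8 had a log2 fold change below 0, beside 49.5% of all genes tested. At an unadjusted limma p under 0.05 were 4, all lower in the knockout, beside 15.5% of all genes tested in either direction. The one called was Cd200r1, the targeted gene. Of 10 markers of conventional NK cells 8 were called higher in the knockout, with a summed level of 345 to 634 FPKM in knockout and 156 to 157 FPKM in WT. Of 10 macrophage markers tested 7 were called higher, and Clec4f, Vsig4 and Cd5l were not called. Summed over all 12 macrophage markers, tested or not, the level was 641 to 954 FPKM in knockout and 225 to 246 FPKM in WT. Most of this sum was Lyz2, with 527 and 771 FPKM in knockout and 213 and 193 FPKM in WT. All 7 erythroid markers tested were called lower. The sum over all 8, tested or not, was 12483 to 14027 FPKM in knockout and 24711 to 26812 FPKM in WT. Of 13 mitochondrially encoded mRNAs 11 were called higher, with 12831 to 15138 FPKM in knockout and 6697 to 8481 FPKM in WT. Of 7 hepatocyte markers 1 was called higher. The 3 neutrophil markers tested went both ways. Mmp9 was called lower (−1.09), while S100a8 (1.06) and S100a9 (1.02) were higher in the knockout and not called. Limma called 0 of 7 T cell markers and 0 of 4 B cell markers, with 4 and 2 at an unadjusted p under 0.05. No marker of these lists was at 0 in all libraries, and the part of these differences in the Zfp values below was not tested.

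The genotype comparison asked how the liver ILC1 transcriptome differs without Cd200r. It called 1 of the 203 members. Zfp512 fell in the knockout. It read 65.0 and 53.9 FPKM in knockout and 85.0 and 86.4 FPKM in WT. Both knockout values lay under both WT values, and the knockout libraries lay further apart than the WT libraries. The means were 59.5 ± 7.82 FPKM in knockout and 85.7 ± 0.99 FPKM in WT (SD, n = 2 libraries each), a ratio of 1.44 WT over knockout. On the log2(FPKM + 1) scale, which understates changes of low genes, the difference was −0.53 (SE 0.11, adjusted p = 0.0307, limma with Benjamini-Hochberg adjustment over the 9476 genes). Zfp512 lies at chr5:31452421-31481754 (GRCm38, Entrez 269639). Of the 50-base windows of its longest transcript, 0.490% occur in a transcript of another gene. The call did not hold without knockout replicate 2 (−0.39, adjusted p = 0.0973), without WT replicate 1 (−0.54, adjusted p = 0.0876) or without WT replicate 3 (−0.51, adjusted p = 0.0949). It was lost as well with no filter on low values (adjusted p = 0.343) and without limma's mean-variance trend (adjusted p = 0.207).

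The 1 call makes 0.493% of the members. Over all genes tested, 3.33% were called, 2.4% higher and 0.939% lower in the knockout. No member was called higher in limma, where 4 had a higher value at an unadjusted p under 0.05. In either direction 20 members (9.85%) had an unadjusted p under 0.05, of which 16 were lower, beside 15.5% of all genes tested. Which members were called, and how many had an unadjusted p under 0.05, changed with the library left out. Such a fit leaves 1 library in a group, and the number called over all genes tested changed as well. An exact permutation test of 2 libraries against 2 cannot go below p = 0.333. After Zfp512, the smallest adjusted p of a member was 0.0885, that of Zfp775.

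**Figure D2:**
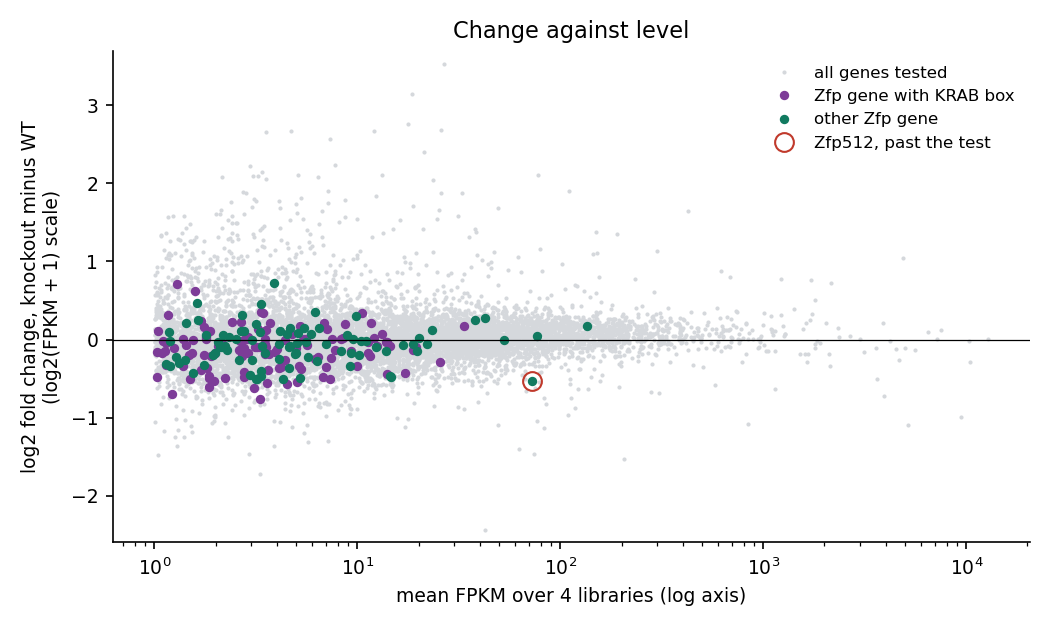
Log2 fold change (log2(FPKM + 1) scale, positive where the knockout is higher) against mean FPKM over the 4 libraries (log axis) for all 9476 genes tested (grey) and the Zfp genes with and without a KRAB box. Zfp genes lie between −0.76 and 0.72, and the ringed Zfp512 is the one past the test.

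The log2 fold changes of the members ran from −0.76 to 0.72. None reached a size of 1 on the log2(FPKM + 1) scale, as 210 of all 9476 genes tested did. This scale understates changes of low genes, and with 0.1 FPKM added in place of 1, Zfp599 had −1.23 and Zfp773 1.24. With 1 FPKM added, as elsewhere here, a size over 0.5 was found in 17 members (8.37%), near the 9.67% of all genes tested. The median over the members was −0.09 (quartiles −0.26 and 0.05), beside 0.00 over all genes tested. A log2 fold change below 0 was found in 134 of 203 members (66.0%) and in 49.5% of all genes tested. Both knockout values lay under both WT values in 56 members (27.6%; 21.7% of all genes tested) and above them in 20 members (9.85%; 24.3% of all genes tested). The median level over the members, taken within each library, was 3.62 and 3.51 FPKM in knockout and 4.05 and 3.91 FPKM in WT. In bulk RNA, fewer cells that express a gene and less of its RNA per cell cannot be told apart.

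The values also varied with level. Among genes with a mean of 1 to 5 FPKM, the median log2 fold change was −0.10 over the 127 members and −0.04 over the 3072 other genes, and 67.7% and 55.4% were below 0. At 5 to 20 FPKM the medians were −0.07 over 65 members and −0.02 over 2918 other genes, and 67.7% and 53.2% were below 0. At 20 FPKM or more the 11 members had a median of 0.04, with 36.4% below 0, and the 3283 other genes a median of 0.05, with 39.7% below 0. The 11 highest members were thus the group with a median above 0.

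The spread between replicate libraries was set beside the difference between genotypes. The median absolute log2 difference between the 2 knockout libraries was 0.26 over the members and 0.18 over all genes tested, and between the 2 WT libraries 0.17 and 0.15. Most members are of low level, and within bands of level the order was mixed. At 1 to 5 FPKM the knockout libraries differed by 0.27 over the members and 0.24 over the other genes, and the WT libraries by 0.18 and 0.23. At 5 to 20 FPKM the values were 0.22 and 0.19 in knockout and 0.19 and 0.16 in WT. At 20 FPKM or more they were 0.11 and 0.13 in knockout and 0.07 and 0.10 in WT, so that there the members lay closer together. The median absolute log2 fold change between genotypes was 0.17 over the members and 0.16 over all genes tested. The knockout libraries differed from each other by more than the genotypes did in 127 members (62.6%; 53.0% of all genes tested), and the WT libraries in 103 members (50.7%; 47.8%). The genotype difference is between means of 2 libraries, which vary less than single libraries. Without any genotype difference, the replicate difference would therefore be the larger in most genes. Zfp61, a KRAB gene, read 6.17 and 2.0 FPKM in knockout and 7.56 and 4.34 FPKM in WT. Zfp943, another KRAB gene, read 5.25 and 12.9 FPKM in knockout and 10.7 and 10.8 FPKM in WT. In both genes the 2 knockout libraries lay far apart, the second being the lower in Zfp61 and the first in Zfp943. With 2 libraries, which of them is unusual cannot be told.

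Among members whose groups did not overlap, the lowest log2 fold changes belonged to Zfp788, Zfp599, Zfp764, Zfp85 and Zfp617, all with a KRAB box, and none passed the test. Zfp788 read 2.05 and 2.31 FPKM in knockout and 5.07 and 3.75 FPKM in WT, a log2 fold change of −0.76 (SE 0.22, limma adjusted p = 0.107). Zfp599 read 0.892 and 0.517 FPKM in knockout and 1.71 and 1.77 FPKM in WT (−0.69, limma adjusted p = 0.164). In both genes the WT values were above the knockout values by more than the replicates differed, and at these levels the Zfp599 values rest on an estimated 73 to 246 reads a library. Zfp764 read 1.44 and 3.12 FPKM in knockout and 4.04 and 3.75 FPKM in WT (−0.63, limma adjusted p = 0.285), and its knockout libraries lay further apart than any other pair of this group. The value was −0.25 without knockout replicate 1 and −1.0 without knockout replicate 2. Zfp85 read 1.36 and 1.17 FPKM in knockout and 2.51 and 2.36 FPKM in WT (−0.60, limma adjusted p = 0.198). Zfp617 read 3.77 and 3.07 FPKM in knockout and 5.87 and 5.19 FPKM in WT (−0.57, limma adjusted p = 0.199). Shared sequence touches 3 of these genes, since 27.6% of the 50-base windows of Zfp764, 31.2% of those of Zfp85 and 41.6% of those of Zfp617 also occur in another gene, and a read within such a window cannot be assigned to 1 gene by its sequence.

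The highest log2 fold changes belonged to Zfp775, Zfp773, Zfp446, Zfp438 and Zfp296, and none passed the test. Zfp775, with 11 fingers and no KRAB box, read 4.94 and 5.24 FPKM in knockout and 2.70 and 2.68 FPKM in WT, a log2 fold change of 0.72 (SE 0.20, limma adjusted p = 0.0885). Its replicates lay close together in both groups. Zfp773 read 2.10 and 1.59 FPKM in knockout and 0.949 and 0.534 FPKM in WT (0.71, limma adjusted p = 0.166). Zfp446, which has both a KRAB box and a SCAN domain, read 1.78 and 2.50 FPKM in knockout and 0.937 and 1.10 FPKM in WT (0.63, limma adjusted p = 0.211). Both of these genes were near 1 FPKM or under it in WT. Zfp438 read 2.44 and 1.64 FPKM in knockout and 1.03 and 1.36 FPKM in WT (0.46, limma adjusted p = 0.396). Zfp296, a gene known from pluripotent cells, read 3.52 and 4.53 FPKM in knockout and 2.57 and 2.73 FPKM in WT (0.45, limma adjusted p = 0.341).

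**Figure D3:**
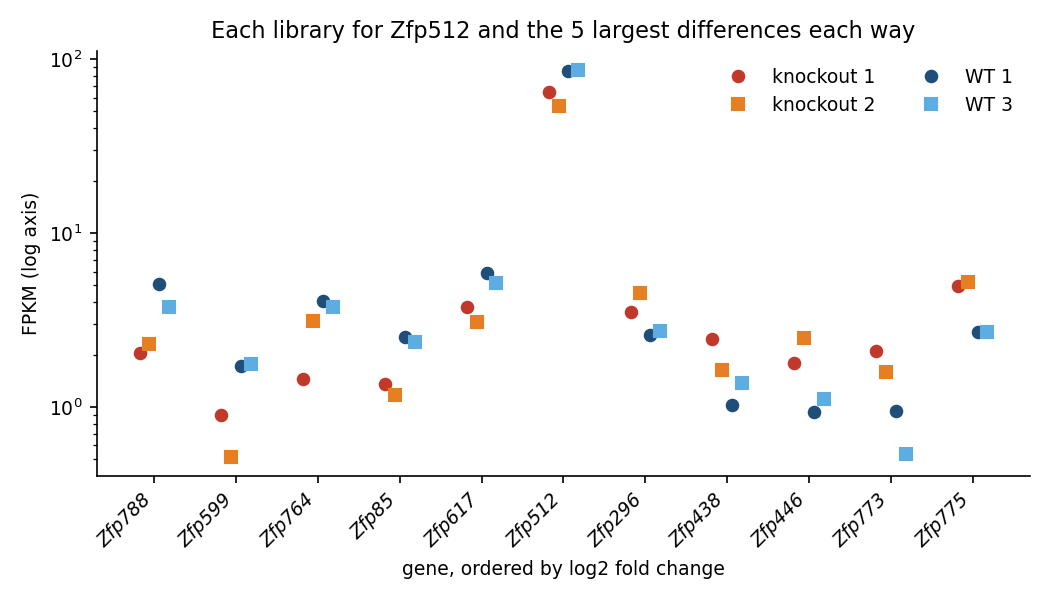
FPKM (log axis) in each of the 4 libraries for Zfp512 and for the 5 lowest and 5 highest log2 fold changes among Zfp genes whose groups do not overlap, ordered by log2 fold change. Zfp512 lies between 53.9 and 86.4 FPKM, and the other 10 genes lie under 6 FPKM in every library.

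By class, the KRAB members had a median log2 fold change of −0.10, with 79 of 116 (68.1%) below 0. Their knockout values lay wholly under the WT values in 36 (31.0%) and wholly above them in 9 (7.76%). The 84 members with a coding sequence and no KRAB box had a median of −0.06, with 53 (63.1%) below 0. Of these 84, 19 (22.6%) lay wholly under and 11 (13.1%) wholly above. Over all genes tested, 49.5% were below 0, 21.7% wholly under and 24.3% wholly above. The KRAB members had a median level of 3.46 FPKM and the others 4.41 FPKM, and the difference between the classes was not tested. In 5 members a SCAN domain and no KRAB box was found by this search (Zfp24, Zfp263, Zfp287, Zfp397 and Zfp444). Zfp287 held 5 of the 8 KRAB residues. All 5 members had a log2 fold change below 0, from −0.51 in Zfp287 to −0.05 in Zfp444, and none passed the test. Across 200 genes, Spearman's rho between the number of fingers and the log2 fold change was −0.17, with genes that share libraries and neighbours. Zinc finger genes with other names were set beside these. The 91 other genes tested that the authors' deposited table places in the zf-C2H2 family had a median of −0.07, with 58.2% below 0 and 2 called higher. The 23 Zbtb genes, which pair a BTB domain with fingers, had a median of −0.03, with 65.2% below 0, and limma called 0, 3 being at an unadjusted p under 0.05.

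**Figure D4:**
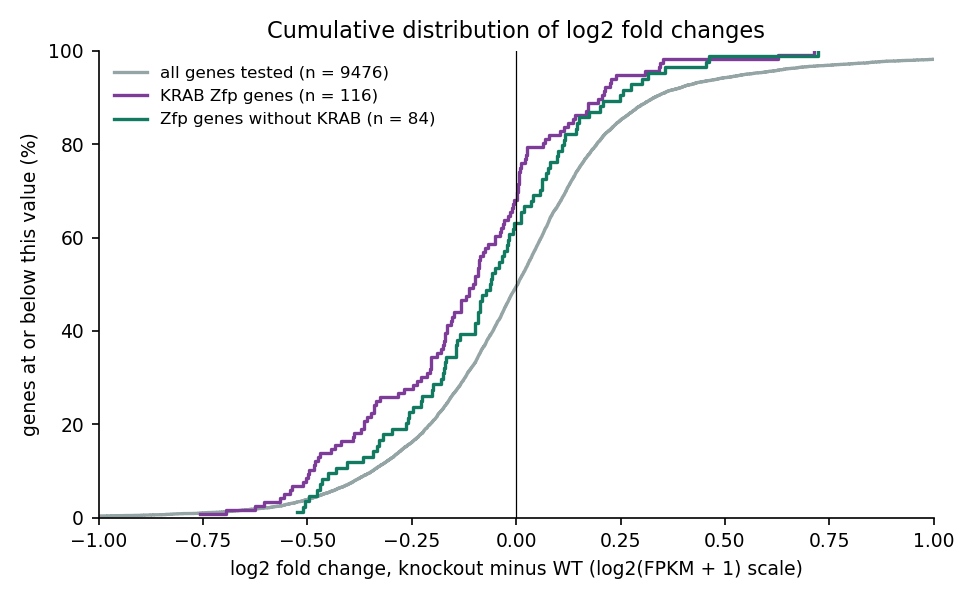
Cumulative share of genes (percent) at or below each log2 fold change (log2(FPKM + 1) scale, positive where the knockout is higher), for all 9476 genes tested, 116 KRAB Zfp genes and 84 Zfp genes without KRAB; values beyond −1 and 1 are not drawn. At 0 the line of all genes stands at 49.5% and both Zfp lines stand above it.

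Of 10 members listed for a role in RNA, ribosomes or mitosis limma called 0, with 2 at an unadjusted p under 0.05. Their median log2 fold change was 0.02. At the 3.33% called over all genes, a count of 0 in a list of this size, or in the lists that follow, sets none of them apart. Zfp330 read 46.3 and 46.8 FPKM in knockout and 38.1 and 38.5 FPKM in WT (0.27, limma adjusted p = 0.249). Zfp622, a factor of large ribosomal subunit maturation, read 43.5 and 39.2 FPKM in knockout and 35.4 and 33.6 FPKM in WT (0.26, limma adjusted p = 0.327). Both had all knockout values above all WT values. Zfp277 was put in this list, though the role given for it here is binding to the Polycomb protein Bmi1. It went the other way, with 10.6 and 13.5 FPKM in knockout and 16.8 and 17.1 FPKM in WT (−0.47, limma adjusted p = 0.182).

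Of 29 Zfp genes of the table with a known role in transcription or chromatin, 17 reached 1 FPKM. Limma called 0 of them, 1 had an unadjusted p under 0.05, 12 were below 0 and their median log2 fold change was −0.04. Zfp143, an activator that binds promoters and chromatin loop anchors, read 22.2 and 21.0 FPKM in knockout and 23.1 and 21.9 FPKM in WT (−0.06, SE 0.13). Its groups overlapped. Zfp592, a partner of the chromatin reader Zmynd8, read 2.77 and 2.55 FPKM in knockout and 3.88 and 4.25 FPKM in WT (−0.47, limma adjusted p = 0.301). Zfp746, a KRAB protein also called PARIS that represses the metabolic coactivator PGC-1α, read 11.9 and 11.9 FPKM in knockout and 9.11 and 9.23 FPKM in WT (0.34, limma adjusted p = 0.335). Zfp592 and Zfp746 each had non-overlapping groups, in opposite directions. Zfp292 read 3.95 and 3.38 FPKM in knockout and 4.60 and 4.46 FPKM in WT (−0.25, limma adjusted p = 0.615).

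Of 6 KRAB genes known to guard imprints or silence retroelements, 3 reached 1 FPKM, and limma called 0 of them, none at an unadjusted p under 0.05. Zfp809, which recruits Trim28 to integrated murine leukaemia virus, read 9.97 and 12.2 FPKM in knockout and 11.3 and 11.3 FPKM in WT (−0.03, SE 0.17). Zfp445, an imprint guard, read 4.77 and 3.02 FPKM in knockout and 5.82 and 3.93 FPKM in WT (−0.27, SE 0.25), and its value ran from −0.53 to −0.0064 with each library left out. Zfp932, a silencer of endogenous retroviruses, read 2.59 and 3.51 FPKM in knockout and 4.10 and 2.64 FPKM in WT (−0.10, SE 0.24). All 3 had overlapping groups. Zfp57, the imprint guard of early embryos, was listed at 0 in both knockout libraries and at 0.00398 and 0.00402 FPKM in WT. Zfp568 and Zfp708 lay under a mean of 1 FPKM.

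The partners through which KRAB proteins act were counted in the same way. Of 25 corepressor and heterochromatin genes tested, limma called 0, and 3 (12%) were at an unadjusted p under 0.05, near the 15.5% of all genes. Their median log2 fold change was 0.03, with 12 below 0. Trim28 read 31.3 and 30.2 FPKM in knockout and 27.9 and 28.2 FPKM in WT (0.13, SE 0.12). Setdb1 read 3.17 and 1.65 FPKM in knockout and 2.85 and 2.01 FPKM in WT (−0.03, SE 0.27), so that its replicates differed by more than its groups. Dnmt1, the maintenance DNA methyltransferase, read 9.68 and 9.07 FPKM in knockout and 14.9 and 12.5 FPKM in WT (−0.50, limma adjusted p = 0.161). Uhrf1, which brings Dnmt1 to replicated DNA, read 3.55 and 1.96 FPKM in knockout and 1.03 and 1.38 FPKM in WT (0.74, limma adjusted p = 0.185). These 2 partners of one process had opposite signs, and neither passed the test. Rbbp7 (0.29, limma adjusted p = 0.128) and Mta2 (0.20, limma adjusted p = 0.395), both of the NuRD deacetylase complex, were the other genes of the lists with the smallest p. Of the 4 genes tested for the HUSH complex and its partner Morc2a, which silence retroelements together with Setdb1, limma called 0, none at an unadjusted p under 0.05.

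The members were spread over 20 chromosomes, with 52 on chromosome 7, 27 on chromosome 17, 18 on chromosome 13 and 16 on chromosome 8. With neighbours joined where they lay within 500 kb of each other, 93 members fell into 14 runs of 4 or more. Of these runs, 12 had a median log2 fold change below 0, 13 held members of both signs and 1 held members below 0 alone. This run, at chr8:69209018-69774911 (GRCm38), holds Zfp930, Zfp868, Zfp869, Zfp963 and Zfp866, all with a KRAB box, and its median was −0.35. Zfp930 read 4.42 and 4.50 FPKM in knockout and 6.04 and 6.10 FPKM in WT, and Zfp963 read 4.07 and 3.09 FPKM in knockout and 4.87 and 4.73 FPKM in WT. Zfp868 read 14.8 and 12.6 FPKM in knockout and 14.0 and 13.9 FPKM in WT. Zfp866 read 4.35 and 1.74 FPKM in knockout and 5.56 and 2.82 FPKM in WT. The groups of Zfp930, Zfp963 and Zfp869 did not overlap, and those of Zfp868 and Zfp866 did. This run was picked out of the 14 after its values were seen, and 66.0% of all members were below 0. The longest run, at chr17:21008941-22867309, holds 14 KRAB genes, among them Zfp51, of which 8 were below 0, with values from −0.50 to 0.34. The run at chr13:67038594-67827000 holds 11 KRAB genes, among them Zfp85 and Zfp65, of which 8 were below 0, with a median of −0.17. Some members share sequence with other genes. Windows were taken from the longest transcript of each member, and genes that overlap the same place on either strand were counted too. At least 20% of the 50-base windows occurred in another gene in 33 members, and under 5% in 131. The 33 had a median log2 fold change of −0.11 with 78.8% below 0, and the 131 a median of −0.09 with 67.2% below 0.

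**Figure D5:**
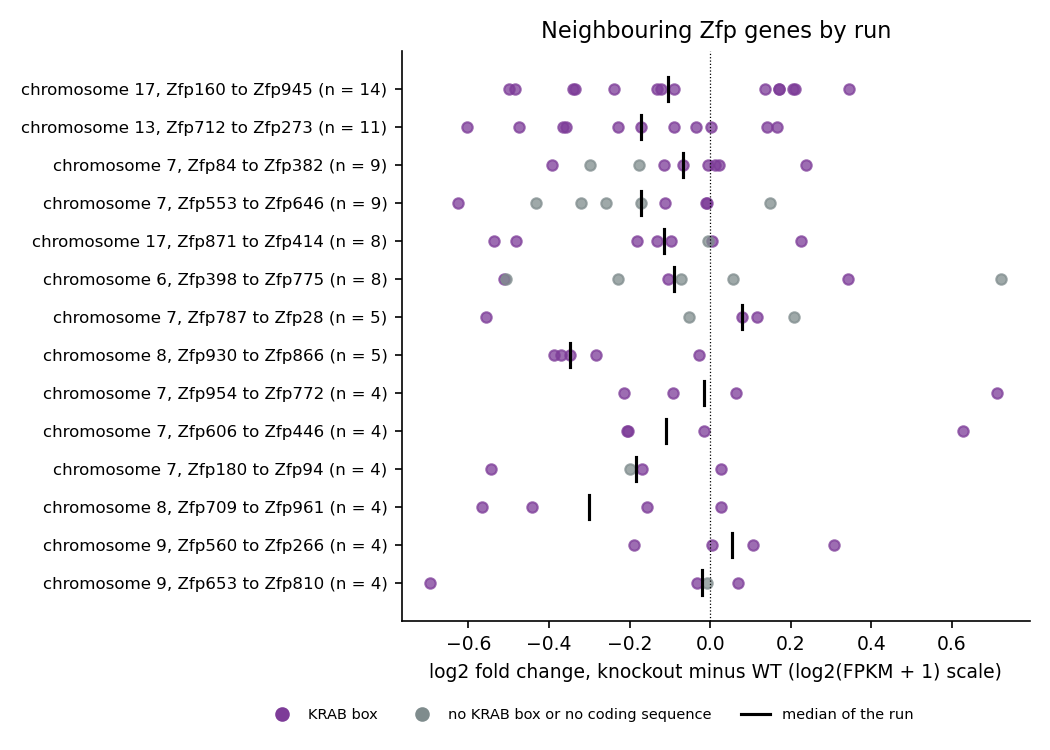
Log2 fold change (log2(FPKM + 1) scale, positive where the knockout is higher) for each Zfp gene of the 14 runs of 4 or more neighbours, named by the first and last gene along the chromosome; points are genes, coloured by KRAB box, and bars are medians. In the chromosome 8 run from Zfp930 to Zfp866 all 5 genes lie below 0.

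Promoters were compared by CG, the dinucleotide that DNA methylation acts on. RefSeq promoter sequence (GRCm38.p6, 250 bases before to 50 after the start) was matched for 174 members. The median was 15 CG per 300 bases in these members and 21 in the 7703 matched genes of any kind that passed the same level rule, and 10 or more CG were found in 71.8% and 82.3%. Over all 27025 genes with a promoter sequence the median was 7, with 43.9% at 10 or more. These are more than the 18804 genes of the expression table, so some have no level here. The members stood under the matched genes that passed the same level rule. KRAB members had a median of 11 (61.5% with 10 or more, n = 104) and members without KRAB a median of 20 (89.6%, n = 67). CG reads the same on both strands and was counted once. Spearman's rho between the number of fingers and CG was −0.40 over 171 genes. No methylation was measured here. The 250 bases before the start are shown, with CG in capitals, for Zfp512 and for the members with the highest and lowest log2 fold change, which hold 11, 18 and 4 CG in these 250 bases. They are from RefSeq GRCm38.p6 and on the plus strand.
Zfp512, chr5:31452186-31452435: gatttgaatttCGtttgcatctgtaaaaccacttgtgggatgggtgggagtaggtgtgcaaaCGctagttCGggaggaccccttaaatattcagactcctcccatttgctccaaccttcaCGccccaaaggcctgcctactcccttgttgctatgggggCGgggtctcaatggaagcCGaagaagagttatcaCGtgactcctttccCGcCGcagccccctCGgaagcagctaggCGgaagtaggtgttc
Zfp775, chr6:48601757-48602006: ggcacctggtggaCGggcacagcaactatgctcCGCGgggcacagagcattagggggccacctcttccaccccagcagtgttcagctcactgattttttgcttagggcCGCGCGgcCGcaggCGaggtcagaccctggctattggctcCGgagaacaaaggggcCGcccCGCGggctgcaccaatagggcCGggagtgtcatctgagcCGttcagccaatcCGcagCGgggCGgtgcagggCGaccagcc
Zfp788, chr7:41633281-41633530: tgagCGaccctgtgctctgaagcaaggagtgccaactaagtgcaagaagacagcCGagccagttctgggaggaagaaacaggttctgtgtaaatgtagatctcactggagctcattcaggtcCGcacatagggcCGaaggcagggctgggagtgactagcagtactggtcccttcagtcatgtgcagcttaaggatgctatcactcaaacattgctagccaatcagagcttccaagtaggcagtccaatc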

How the data were processed

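RNA-seq of liver ILC1s gave 4 libraries, 2 per genotype. Per the labels' protocols, TRIzol RNA was amplified by a kit for full-length cDNA of single cells and tagged with a transposase. Strand is not kept this way, so genes that overlap in antisense share reads. The authors deposited FPKM values per gene. The build mm10 and, with no role or order, DESeq2, HTSeq, HISAT2, fastp and R 3.2.0 are named, per the submitters' processing notes.

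Log2(FPKM + 1) values of the 9476 genes that averaged 1 FPKM or more were fitted with limma 3.58.1 in R 4.3.3 (trend, 2 against 2 libraries, two-sided), with Benjamini-Hochberg adjustment over all of them and a threshold of 0.05. The script was tested on simulated data. The members and all gene lists were chosen with earlier results of these data known. Genes are named that passed the test, had the 12 highest or 3 lowest means, the 5 highest or lowest log2 fold changes among members without overlap, lay just under 1 FPKM, had the smallest p in a role or corepressor list, or were in the imprint list. Trim28 and Setdb1 are named too. The genes of uneven replicates, of the run wholly below 0, of the SCAN class and with the most fingers are named beyond this rule, after their values were seen. Fingers and domains were counted in translated coding sequences of GENCODE M21, since a protein table was not used here. Alternatives covered the pseudocount, filter, scaling, trend and each library left out.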

Additional observations from a re-analysis of the deposited data

How the results depend on the processing

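The number of Zfp genes past the test was 1 under the pseudocounts of 0.1 and 5, TPM, quantile normalization, rescaling without haemoglobin and mitochondrial genes, and the filter at a mean of 5 FPKM. It was 0 with no filter and 0 without the mean-variance trend, and ran from 0 to 3 with each library left out. The median log2 fold change kept its sign in every alternative. It was −0.047 with a pseudocount of 5, −0.054 over the 76 members with a mean of at least 5 FPKM, of which 48 were below 0, and from −0.124 to −0.066 with each library left out. Members below 0 numbered 121 to 140 with each library left out, 140 in TPM and 148 after rescaling without haemoglobin and mitochondrial genes. These scalings moved all genes tested down too. Their median went from 0.0033 to −0.0040 in TPM and to −0.0205 after rescaling. Members at an unadjusted p under 0.05 numbered 8 at a mean of 5 FPKM.

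The alternatives were run for the members named by rule. Those whose sign changed had not passed the test. With each library left out in turn, the log2 fold change ran from −0.078 to 0.068 in Zfp414, from −0.095 to 0.44 in Zfp51, from −0.00019 to 0.23 in Zfp511, from −0.097 to 0.13 in Zfp637, from −0.17 to 0.10 in Zfp809, from −0.32 to 0.0096 in Zfp882 and from −0.34 to 0.14 in Zfp932. Quantile normalization gave −0.011 in Zfp706, and rescaling without haemoglobin and mitochondrial genes gave −0.0072 in Zfp637. The cause was not tested. All genes called numbered 0 with no filter, 70 without the trend and 574 without knockout replicate 1, beside 316. With a group of 1 library, that library was assumed to vary like the others. No paired analysis was made, because the replicate numbers are not stated to mark pairs. Low members limit precision, as 5 rest on under 100 estimated reads in a library.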
